A study of Mus musculus with 12 samples.

Results

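The genes described here encode 5 classes of enzyme that process foreign compounds, hormones and lipids: the cytosolic and kappa glutathione S-transferases (GST), the microsomal glutathione S-transferases (MGST), the UDP-glycosyltransferases (UGT), the sulfotransferases (SULT) and the carboxylesterases (CES). They were chosen by a rule on gene symbol alone, with earlier results of these data known. The rule took every gene with a probe set of its own and a matching symbol. A symbol matched when it began with Gst, then a, k, m, o, p or t, then a digit. It also matched when it began with Mgst, Ugt, Sult or Ces and a digit. This gave 59 of the 18193 mouse genes that the array measures with a probe set naming no other gene, and they were 19 GST, 3 MGST, 11 UGT, 13 SULT and 13 CES genes. A probe set is a group of short probes for 1 transcript, and a gene with several was represented by the one with the highest mean log2 signal over the 12 arrays.

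The study measured mouse kidney RNA from the supplier Ambion with 10 ng per array and Universal Mouse Reference RNA from the supplier named Strategene with 0.3, 3 and 10 ng per array. Each group had 3 arrays, 12 in all. All titles carry the code pRS. The labels do not give its meaning, the strain, sex and age of the animals or whether the arrays of a group came from separate RNA preparations. The p-values therefore measure the spread between arrays, which may be technical. Both materials are purchased total RNA, and the reference is sold as a pool of RNA from mouse cell lines, so a comparison of kidney with reference sets a tissue against a mixture of cultured cells. In such bulk RNA, fewer cells of a type and less RNA per cell cannot be told apart.

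Conjugating enzymes attach a polar group to a compound so that it can be carried out of the cell and excreted in bile or urine. GSTs attach glutathione, UGTs transfer a sugar, most often glucuronic acid, from a UDP-sugar, and SULTs transfer sulfate from the donor PAPS. Carboxylesterases do not conjugate. They hydrolyse ester and amide bonds, and the acids and alcohols they release can then be conjugated. In the kidney these enzymes are best known from the proximal tubule, which takes organic anions up from blood and secretes their conjugates into urine.

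Promoter sequences are shown for 2 sets of related members with unlike signals, followed by 1 promoter with a known response motif. Sult1d1 and Sult1e1 are neighbours with no other protein-coding gene between them, and only Sult1d1 was called higher in kidney RNA. The 3 MGST genes were called in both directions. The 4 GST and MGST genes with an antioxidant response element core in the window include Mgst1 and Gstm5. Each sequence is the 150 bases before a RefSeq transcript start in GRCm38.p6, written 5′ to 3′ on the gene's strand, with these motifs in capitals (part of the HNF1 site, GTTAAT with any base and ATT after it, in Sult1d1; the antioxidant response element core TGACNNNGC, on either strand, in Mgst1 and Gstm5; the TATA box TATAAA on either strand, where the matches overlap, in Mgst2). Matches to the short motif GCGTG are left in lower case, except in Gstm5, where one on the other strand overlaps the capitals. Sult1d1 lies at chr5:87569007-87569156 (minus strand), Sult1e1 at chr5:87591612-87591761 (minus), Mgst1 at chr6:138140377-138140526 (plus, 1 of 2 starts in the table), Mgst2 at chr3:51661029-51661178 (plus), Mgst3 at chr1:167393842-167393991 (minus) and Gstm5 at chr3:107895704-107895853 (plus).
Sult1d1: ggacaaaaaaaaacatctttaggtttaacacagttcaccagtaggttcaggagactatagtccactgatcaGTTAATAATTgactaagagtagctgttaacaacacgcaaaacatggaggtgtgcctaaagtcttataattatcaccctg
Sult1e1: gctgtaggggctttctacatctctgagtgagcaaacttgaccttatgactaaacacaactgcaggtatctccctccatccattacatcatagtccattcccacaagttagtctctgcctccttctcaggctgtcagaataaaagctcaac
Mgst1: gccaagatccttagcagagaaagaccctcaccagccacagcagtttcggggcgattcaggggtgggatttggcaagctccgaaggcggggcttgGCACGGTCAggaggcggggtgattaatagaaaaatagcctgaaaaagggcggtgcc
Mgst2: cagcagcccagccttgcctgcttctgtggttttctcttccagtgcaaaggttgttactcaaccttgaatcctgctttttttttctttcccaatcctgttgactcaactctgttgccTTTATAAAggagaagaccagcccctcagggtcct
Mgst3: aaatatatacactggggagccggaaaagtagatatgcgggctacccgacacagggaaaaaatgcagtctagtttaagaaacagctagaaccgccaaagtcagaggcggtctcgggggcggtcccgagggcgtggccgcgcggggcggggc
Gstm5: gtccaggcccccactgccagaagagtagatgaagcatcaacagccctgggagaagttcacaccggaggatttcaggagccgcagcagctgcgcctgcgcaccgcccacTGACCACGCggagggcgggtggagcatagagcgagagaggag

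The GC content of these windows was 37.3% in Sult1d1, 45.3% in Sult1e1, 57.3% in Mgst1, 47.3% in Mgst2, 58.7% in Mgst3 and 64.0% in Gstm5. The dinucleotide CG occurred 13 times in the Mgst3 window, 9 times in Gstm5, 7 times in Mgst1, 1 time in Sult1d1 and not at all in the windows of Sult1e1 and Mgst2. A promoter from 250 bases before to 50 bases after the start was found for 51 of the 59 members, 62 promoters in all. Gsta4, Gstt2, Ugt3a2, Sult2a2, Sult4a1, Ces1d, Ces1f and Ces2b were not matched. Both strands were searched, and each share is set beside that of all 32851 promoters of the same length.

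The antioxidant response element core TGACNNNGC, the motif bound by NRF2 in complex with small MAF proteins, occurred in 4 of the 30 promoters of members called higher in kidney RNA (13.3%), in Gsta3, Gstm5, Gstm7 and Mgst1. It occurred in 12.4% of all promoters and in 0 of the 32 promoters of the other members. The xenobiotic response element core GCGTG, bound by the dioxin receptor AHR, occurred in 9 of 30 promoters (30.0%) of the members called higher, in 3 of 32 (9.38%) of the others and in 32.4% of all promoters. TATAAA occurred in 6 of 30 (20.0%), in 6 of 32 (18.8%) and in 13.6%, in the same order. The part of the HNF1 site made of GTTAAT, any base and ATT occurred in Sult1d1, 79 to 70 bases before the start, and in Ces5a, and in 0.399% of all promoters. The HNF4 motif CAAAGTCCA occurred in Sult1b1 alone among the members and in 0.475% of all promoters. These matches describe letters in a window and were not tested as binding sites.

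Signals are linear intensities in arbitrary units, which the authors scaled to a 2% trimmed mean of 500 per array. A signal counted as above background when it exceeded 33.7, the 95th percentile of 27 bacterial control probe sets over the arrays. Signals of different genes come from different probes, so levels are compared between samples and never between genes. Family members share sequence, and cross-hybridisation between near-identical members was not tested here. By this measure 40 of the 59 members were above background on all 3 kidney arrays, 19 on all 3 arrays of 0.3 ng reference RNA, 22 on all 3 arrays of 3 ng and 22 on all 3 arrays of 10 ng. No kidney array exceeded background for 12 members, and no 10 ng reference array for 25. Of all probe sets other than controls, 38.0 to 39.6% did not exceed background on a kidney array. On a reference array this share was 40.4 to 42.4% at 0.3 ng, 33.2 to 35.6% at 3 ng and 35.4 to 36.3% at 10 ng. These shares are per array and per probe set.

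The classes divided differently by this measure. Of the 13 carboxylesterases, 11 were above background on all kidney arrays and 3 on all 10 ng reference arrays. Of the 11 UGT genes, 6 were above background on all kidney arrays and 1, Ugt2b34, on all 10 ng reference arrays. For the SULT genes these counts were 5 and 2 of 13, for the GST genes 15 and 13 of 19, and for the MGST genes 3 and 3 of 3.

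**Figure D1:**
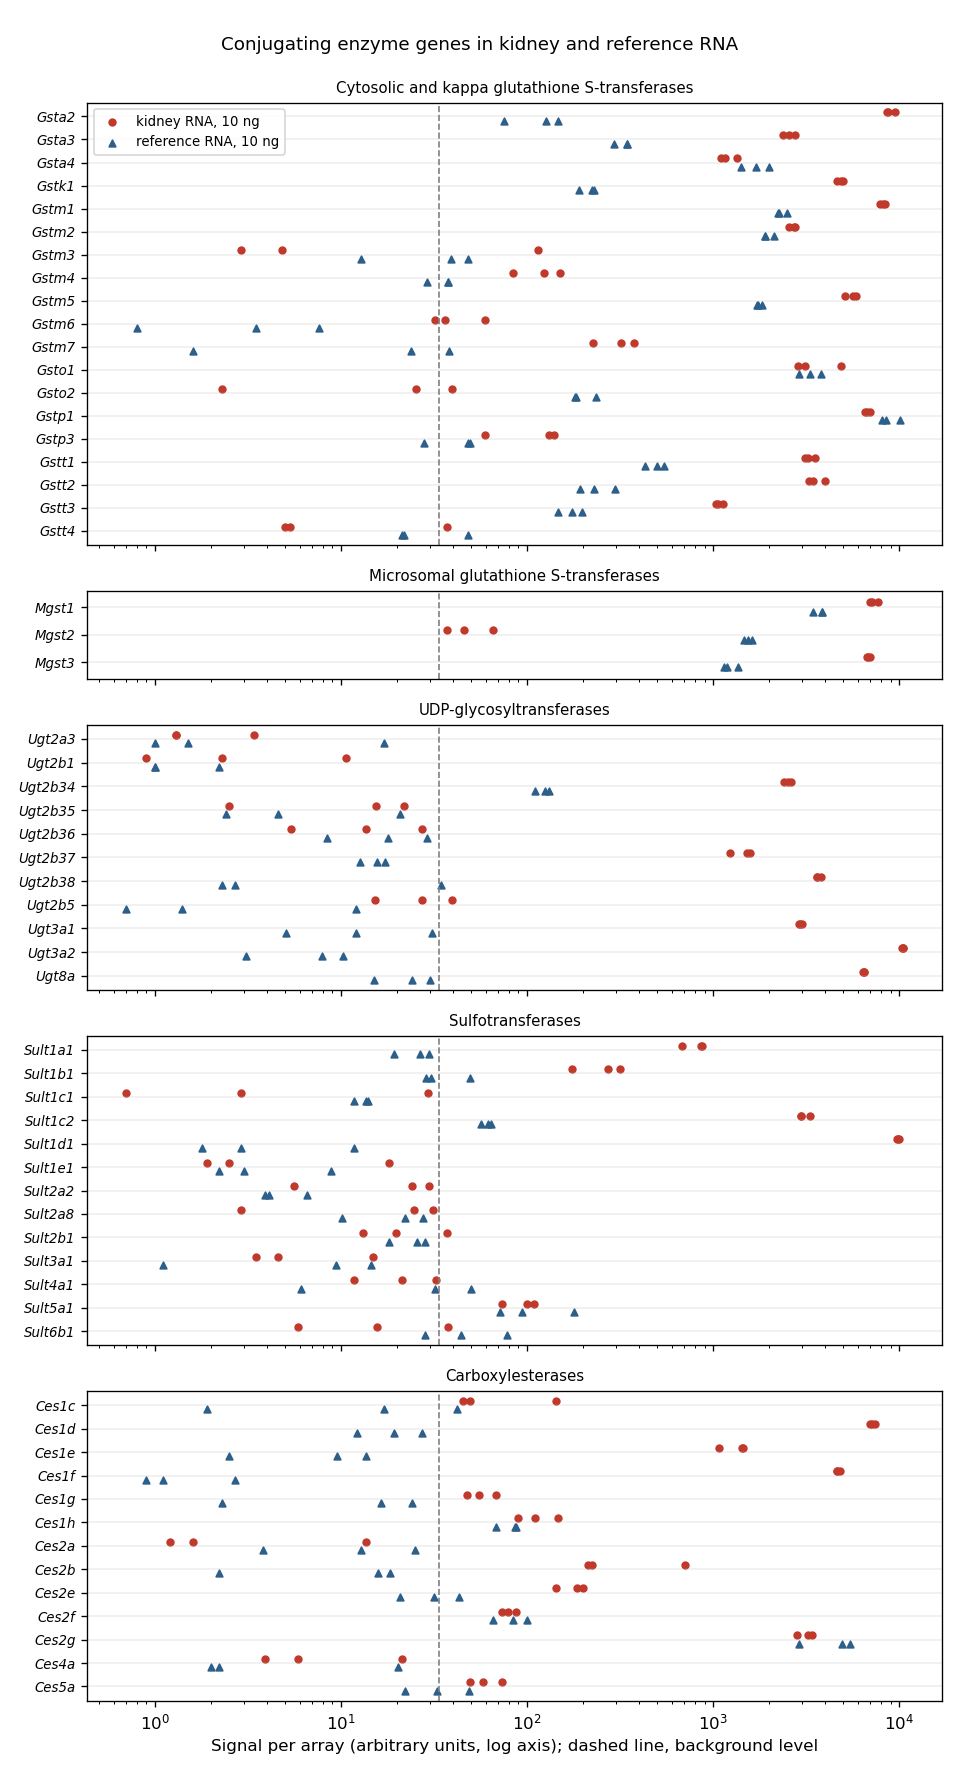
Signal of the 59 members on each of the 3 kidney arrays (red circles) and the 3 arrays of 10 ng reference RNA (blue triangles), in arbitrary units on a log axis, grouped by enzyme class; the dashed line is the background level of 33.7. The UGT, SULT and CES panels hold members whose kidney arrays lie far to the right of the line while all reference arrays lie at or below it, and Mgst2 and Gsto2 show kidney arrays far to the left of the reference arrays.

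The comparison of kidney RNA with 10 ng reference RNA asks which of these genes differ between the tissue and the mixture at equal input. It was fitted with limma on log2 of the signal plus 3.9 across 27022 probe sets, with Benjamini-Hochberg adjustment over all of them, and a member was called at an adjusted p under 0.05. Of the 59 members, 29 were called higher and 2 lower in kidney RNA, 8 were tested and not called, and 20 had signals too low to be tested. Among all 12820 genes tested, 27.1% were called higher and 35.6% lower (62.7% in either direction). The median log2 fold change was 2.68 over the 39 members tested and -0.19 over all genes tested.

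The filter on low signals bears on these counts. It kept a probe set when its highest group mean exceeded a signal of 65.4. Of the 39 members, 18 passed it through kidney RNA alone, so the filter itself chose them for a higher mean in kidney RNA. Of these, 17 were called higher, and Ces1c was not called. Of the other 21, which passed through a reference group, 12 were called higher, 2 lower and 7 were not called. Both genes called lower, Gsto2 and Mgst2, passed through reference RNA alone, so the filter chose them for a higher mean there. The same split was not made over all genes, so these counts have no share of all genes beside them. Without any filter 30 of all 59 members were called higher and 2 lower, against 17.8% and 21.7% of all 18193 genes, and the median was 1.64 over the members and -0.13 over all genes. With every array centred on its median, which moved the median of all genes tested to 0.06, 30 members were called higher and 2 lower, and 54.7% of all calls among genes were higher, against 43.2% as deposited.

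Among the GST genes 12 of 16 tested were called higher, 1 lower and 3 were not called. Of the 12 called higher, 3 passed the filter through kidney RNA alone (Gstm4, Gstm7 and Gstp3). The gene called lower, Gsto2, passed through reference RNA alone. Gsta2, an alpha class enzyme that also binds bilirubin and other hydrophobic ligands, had 8639, 9445 and 8741 units in kidney RNA and 126.5, 74.9 and 148 units in 10 ng reference RNA. All kidney arrays exceeded all reference arrays, with a log2 fold change of 6.27 (SE 0.26, adjusted p = 2.97e-05). The other alpha members differed from it. Gsta3 averaged 2563 ± 188 units in kidney RNA and 326 ± 29.6 units in reference RNA (SD, n = 3 each), a log2 fold change of 2.96 (adjusted p = 3.84e-05). Gsta4, whose product conjugates the lipid peroxidation product 4-hydroxynonenal, averaged 1201 ± 133 and 1711 ± 296 units in kidney and reference RNA, with a log2 fold change of -0.50 that was not called (adjusted p = 0.0537), although every kidney array was below every reference array, and without reference array 1 it was called lower (adjusted p = 0.0378).

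Gstk1, the kappa enzyme of mitochondria and peroxisomes, had 4636, 4995 and 4843 units in kidney RNA, against 228.5, 189.9 and 224 units in reference RNA (log2 fold change 4.47, SE 0.13, adjusted p = 1.09e-05). No array of either group came near those of the other. The 3 tested theta enzymes were all called higher in kidney RNA. Gstt2 had 3272, 3979.7 and 3436 units in kidney RNA and 297, 228 and 192 units in reference RNA, with a log2 fold change of 3.89 (adjusted p = 5.2e-05). Its neighbours Gstt1 and Gstt3 had log2 fold changes of 2.74 and 2.62. The fourth theta gene of that cluster, Gstt4, had 37.3, 5.0 and 5.3 units in kidney RNA and 21.8, 21.3 and 48.3 units in reference RNA and was not tested, since most of its arrays were at or below background.

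The mu class genes lie in 1 cluster of 7 with no other protein-coding gene between them, and 5 of the 7 were called higher in kidney RNA with log2 fold changes from 0.44 for Gstm2 to 4.03 for Gstm7. Gstm7 had 374, 227.5 and 318 units in kidney RNA and 23.9, 37.9 and 1.6 units in reference RNA (adjusted p = 0.00603), and 1 of the 3 reference arrays was above background. With signals below background raised to it, its difference was 3.10. A second probe set of Gstm7 was dim, with means of 35.4 and 10.2 units in kidney and reference RNA, and was not tested. Gstm1 and Gstm5 were bright in both materials: Gstm1 averaged 8155 ± 263 units in kidney RNA and 2331 ± 147 in reference RNA, and Gstm5 averaged 5527 ± 358 and 1764 ± 63.1 units in kidney and reference RNA. Their log2 fold changes were 1.81 (adjusted p = 0.000122) and 1.64 (adjusted p = 0.000174). The calls of Gstm2 (log2 fold change 0.44, adjusted p = 0.0226) and of the pi class gene Gstp3 (1.26, adjusted p = 0.0333) were lost when single arrays were left out. For Gstm2 these were kidney array 2 or 3 and reference array 1 or 3 (adjusted p = 0.0636 to 0.0709), and for Gstp3 kidney array 1 or 2 and any reference array (adjusted p = 0.0583 to 0.0991). Both calls were also lost without a filter (adjusted p = 0.0882 and 0.0627), and that of Gstp3 in a joint fit of the 12 arrays (adjusted p = 0.0951). Gstm4, dimmer than background on 1 reference array, averaged 119 ± 33.5 units in kidney RNA and 34.7 ± 4.91 in reference RNA (adjusted p = 0.00234), a call that was lost in that joint fit (adjusted p = 0.073). Gstm3 and Gstm6 were not tested.

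Neither omega gene was called higher in kidney RNA. Gsto2, an omega enzyme with dehydroascorbate reductase activity, had 39.4, 25.4 and 2.3 units in kidney RNA and 181, 183.5 and 236 units in reference RNA. It was called lower in kidney RNA, with a log2 fold change of -3.35 (SE 0.73, adjusted p = 0.00976), or -2.48 with signals raised to background, since 1 of its 3 kidney arrays was above background. Its neighbour Gsto1 was not called, with 3125, 4867 and 2854 units in kidney RNA and 3302, 2888 and 3805 units in reference RNA, and its arrays overlapped. Another probe set of Gsto1 averaged 1376 units in kidney RNA and 2096 in reference RNA and was called lower (log2 fold change -0.62, adjusted p = 0.0127), so the probe sets of this gene disagree. Gstp1, the pi enzyme abundant in many cultured and tumour cells, had 6547.5, 6944 and 6705 units in kidney RNA, against 8499, 10115 and 8051 units in reference RNA. Every kidney array was below every reference array, and the log2 fold change of -0.39 missed the threshold (adjusted p = 0.0505). It was called lower under 5 of the alternative settings.

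The 3 microsomal enzymes, which sit in the membranes of the endoplasmic reticulum and mitochondria, were bright on all reference arrays and were called in both directions. Mgst3, which also has glutathione peroxidase activity, had 6719, 6771 and 6976 units in kidney RNA and 1138, 1357.5 and 1187 units in reference RNA (log2 fold change 2.47, SE 0.13, adjusted p = 5.44e-05). Mgst1, which protects membranes from lipid peroxides, had 7129.5, 6939 and 7652 units in kidney RNA and 3867, 3442 and 3871 units in reference RNA, with a log2 fold change of 0.96 (SE 0.12, adjusted p = 0.00136). A second probe set of Mgst1 was dim, with means of 27.7 and 18.5 units in kidney and reference RNA, and was not tested. By the probe sets used, all kidney arrays lay above all reference arrays in Mgst3 and Mgst1. Mgst2, which can form leukotriene C4 from leukotriene A4 and glutathione, went the other way, with 65.8, 45.9 and 37.1 units in kidney RNA and 1622, 1543.5 and 1474 units in reference RNA. Its kidney signals were just above background, and its log2 fold change of -4.89 (SE 0.22, adjusted p = 3.53e-05) was the lowest of the 39 members tested.

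The UGT class was split between members bright in kidney RNA and members at background in both materials. All 6 members tested were called higher in kidney RNA, and 5 of them passed the filter through kidney RNA alone. Ugt3a2 had 10329, 10503 and 10443 units in kidney RNA and 7.9, 10.3 and 3.1 units in reference RNA (adjusted p = 9.3e-06). All its reference arrays were below background, so the difference is a bound: the kidney mean was at least 309.7-fold higher, computed as the geometric mean of the kidney arrays over the background level. Its neighbour Ugt3a1 had 3009, 2934 and 2895 units in kidney RNA and 12, 30.7 and 5.1 units in reference RNA, so that kidney RNA was at least 87.5-fold higher (adjusted p = 0.000111). The human UGT3A enzymes use sugars other than glucuronic acid.

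Ugt8a makes galactosylceramide, a lipid of myelin and kidney membranes, from ceramide and UDP-galactose, and so is no detoxification enzyme in the strict sense. It had 6507, 6361 and 6434 units in kidney RNA, against 24.2, 30.3 and 15.1 units in reference RNA, and kidney RNA was at least 191-fold higher (adjusted p = 1.1e-05). A second probe set of Ugt8a was dim, with means of 38.9 and 10.4 units in kidney and reference RNA, and was not tested. The remaining UGT members belong to family 2, whose enzymes glucuronidate steroids, bile acids and drugs, and they form 1 cluster of 8 with no other protein-coding gene between them. Of these 8, 3 were called higher in kidney RNA. Ugt2b38 had 3631, 3631 and 3784 units in kidney RNA and 2.3, 2.7 and 34.3 units in reference RNA, a log2 fold change of 8.31 (adjusted p = 0.000311), or 6.76 with signals raised to background because 1 reference array stood just above it. Ugt2b37 averaged 1439 ± 187 units in kidney RNA and 15.2 ± 2.35 units in reference RNA, at least 42.5-fold higher. Ugt2b34 had 2408.5, 2521 and 2622 units in kidney RNA and 131, 110.0 and 124.5 units in reference RNA (log2 fold change 4.33, SE 0.13, adjusted p = 1.11e-05) and was the UGT member above background on all 10 ng reference arrays. The other 5 members of the cluster, Ugt2b1, Ugt2b35, Ugt2b36, Ugt2b5 and Ugt2a3, were not tested, and their highest kidney signal was 39.4 units, of Ugt2b5 on 1 array.

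Of the 13 sulfotransferases 5 were tested, and 4 of these were called higher in kidney RNA, all 4 of which passed the filter through kidney RNA alone. Sult1d1, which sulfonates catecholamines such as dopamine in mice, had 9961, 9711 and 9849 units in kidney RNA and 1.8, 11.7 and 2.9 units in reference RNA. No reference array reached background, and the kidney mean was at least 292-fold higher (adjusted p = 2.36e-05). Its neighbours differed from it. Sult1b1, which sulfonates thyroid hormones, had 175.5, 314.5 and 271 units in kidney RNA and 28.7, 30.6 and 49.1 units in reference RNA (log2 fold change 2.68, adjusted p = 0.00076), whereas the estrogen sulfotransferase gene Sult1e1 had 18.2, 1.9 and 2.5 units in kidney RNA and 2.2, 3.0 and 8.9 units in reference RNA, all below background.

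Sult1c2 had 2974, 2980.0 and 3335 units in kidney RNA and 63.8, 56.8 and 61.9 units in reference RNA, where all 3 arrays were above background (log2 fold change 5.58, SE 0.12, adjusted p = 5.49e-06). Its neighbour Sult1c1 did not exceed background on any of these 6 arrays. Sult1a1, the main phenol sulfotransferase, had 869, 856 and 679 units in kidney RNA and 29.7, 19.2 and 26.6 units in reference RNA, at least 23.7-fold higher in kidney RNA (adjusted p = 2.83e-05). Sult5a1 was tested and not called, with 109, 99.7 and 73.5 units in kidney RNA and 93.9, 178 and 71.4 units in reference RNA. Its arrays overlapped, its log2 fold change was -0.19 (adjusted p = 0.668), and the sign changed when the arrays were centred. The family 2 genes, whose enzymes act on hydroxysteroids (Sult2a2, Sult2a8 and Sult2b1), and Sult3a1, Sult4a1 and Sult6b1 were not tested.

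The carboxylesterases divided into members bright in kidney RNA alone, members dim in both materials and Ces2g, which was bright in both. Of 9 tested, 5 were called higher and 4 were not called. All 5 were among the 6 that passed the filter through kidney RNA alone. The 3 that passed through a reference group were not called. Ces1d, a triacylglycerol hydrolase of the endoplasmic reticulum, had 7153, 6987 and 7372 units in kidney RNA and 12.2, 27.4 and 19.2 units in reference RNA, at least 213-fold higher in kidney RNA (adjusted p = 1.25e-05). Ces1f had 4607, 4641 and 4798 units in kidney RNA and 2.7, 1.1 and 0.9 units in reference RNA, and kidney RNA was at least 139-fold higher (adjusted p = 3.81e-06). Between them in the genome lies Ces1e, the gene of egasyn, which holds beta-glucuronidase in the endoplasmic reticulum. It had 1069.8, 1422 and 1454 units in kidney RNA and 9.5, 13.6 and 2.5 units in reference RNA, and kidney RNA was at least 38.7-fold higher (adjusted p = 7.81e-05). In these 3 neighbours no 10 ng reference array exceeded background.

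The other members of the same cluster were dim. Ces1c, the gene of a secreted plasma esterase, had 45.1, 142 and 49.3 units in kidney RNA and 41.9, 17 and 1.9 units in reference RNA and was not called (log2 fold change 2.03, adjusted p = 0.0819), but was called higher without reference array 1 (adjusted p = 0.0371). Ces1h averaged 115 ± 28.5 units in kidney RNA and 80.6 ± 10.8 units in reference RNA and was not called (adjusted p = 0.105), and Ces1g and Ces5a, with kidney signals of at most 68.5 and 73.7 units, were not tested.

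In family 2 the calls differed between neighbours. Ces2b had 223, 212 and 710.1 units in kidney RNA, where array 3 stood above the others, and 2.2, 18.3 and 15.9 units in reference RNA, at least 9.59-fold higher in kidney RNA (adjusted p = 0.00251). Ces2e had 143, 199 and 185 units in kidney RNA and 43.1, 31.5 and 20.9 units in reference RNA (log2 fold change 2.36, adjusted p = 0.000898). Its neighbours Ces2f and Ces2g were not called. Ces2g was bright in both materials, with 3233.5, 2818 and 3401 units in kidney RNA and 4947, 2906 and 5424 units in reference RNA, and its arrays overlapped through reference array 2. The log2 fold change was -0.44 (adjusted p = 0.195), and without that array it was -0.72 (adjusted p = 0.016), a call of lower.

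**Figure D2:**
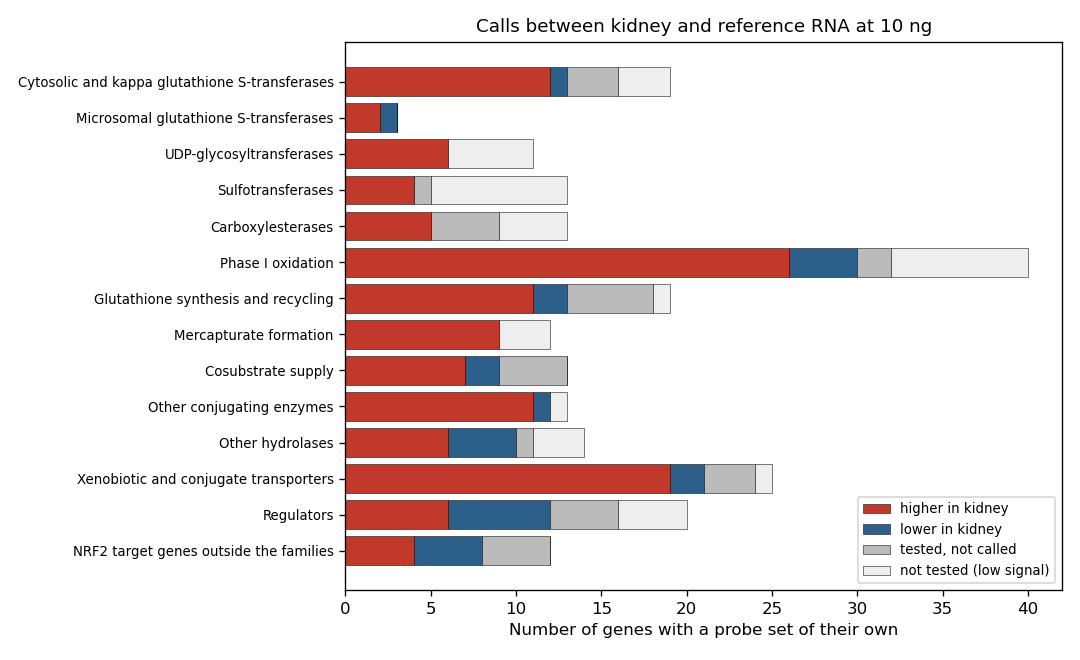
Number of genes called higher (red), called lower (blue), tested and not called (grey) or not tested for low signal (light grey) between kidney and reference RNA at 10 ng (limma, adjusted p under 0.05), in the 5 member classes and 9 lists of related genes. The UGT, SULT, CES and mercapturate formation bars hold no gene called lower. The bars of regulators and of NRF2 targets hold as many called lower as higher, 6 each and 4 each.

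Reference RNA was also measured at 3 and 0.3 ng, and these arrays served as further comparisons for the same 3 kidney arrays, which all 3 comparisons share. Against 3 ng, 29 members were called higher and 3 lower in kidney RNA, where 26.4% and 31.4% of all genes tested were called (57.8% in either direction), and the median log2 fold change was 2.69 over the members and -0.17 over all genes. With centred arrays 61.4% of the calls among genes were higher, against 45.7% as deposited. Against 0.3 ng, 26 members were called higher and 2 lower, where 20.9% and 16.7% of all genes were called (37.6% in either direction), and the median was 3.55 over the members, or 2.86 with signals raised to background, and 0.05 over all genes.

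Mgst2 was called lower in kidney RNA in each of these comparisons, with log2 fold changes of -4.85 against 0.3 ng, -4.48 against 3 ng and -4.89 against 10 ng. Gsto2 was called lower against 10 ng and 3 ng (-3.41, adjusted p = 0.0116) and not against 0.3 ng (-2.57, adjusted p = 0.0581). Ces2g was called lower against 3 ng alone (-0.63, adjusted p = 0.0172) and Gstp1 against 0.3 ng alone (-0.71, adjusted p = 0.0472). The call of Ces2g was lost without kidney array 2 (adjusted p = 0.0589), without a filter (adjusted p = 0.0589) and in a joint fit of the 12 arrays (adjusted p = 0.0997). With centred arrays its log2 fold change was -0.29 (adjusted p = 0.207). The call of Gstp1 was lost without any 1 of its 6 arrays (adjusted p = 0.0506 to 0.16). The differences between these comparisons were not tested. In the UGT and SULT classes the calls were the same at each reference input: 6 and 4 higher and none lower, with Sult5a1 not called. The GST class had 9 members called higher against 0.3 ng, 11 against 3 ng and 12 against 10 ng. Gstm7 was not called against 3 ng, where its reference arrays had 200.1, 37.1 and 13.2 units (adjusted p = 0.0537), but it was called without array 1 (adjusted p = 0.00429). Ces1c, not called against 10 ng, was called higher against 3 ng (log2 fold change 1.63, adjusted p = 0.0354). That call was lost without 3 ng array 1 or 2 (adjusted p = 0.0983 and 0.085) and without a filter (adjusted p = 0.0623). Gstm2, Gstm4 and Gstp3 were not called against 0.3 ng (adjusted p = 0.177, 0.115 and 0.0925). Gstm4 was called higher without 0.3 ng array 2 (adjusted p = 0.0155), and Gstp3 without array 1 (adjusted p = 0.0142).

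**Figure D3:**
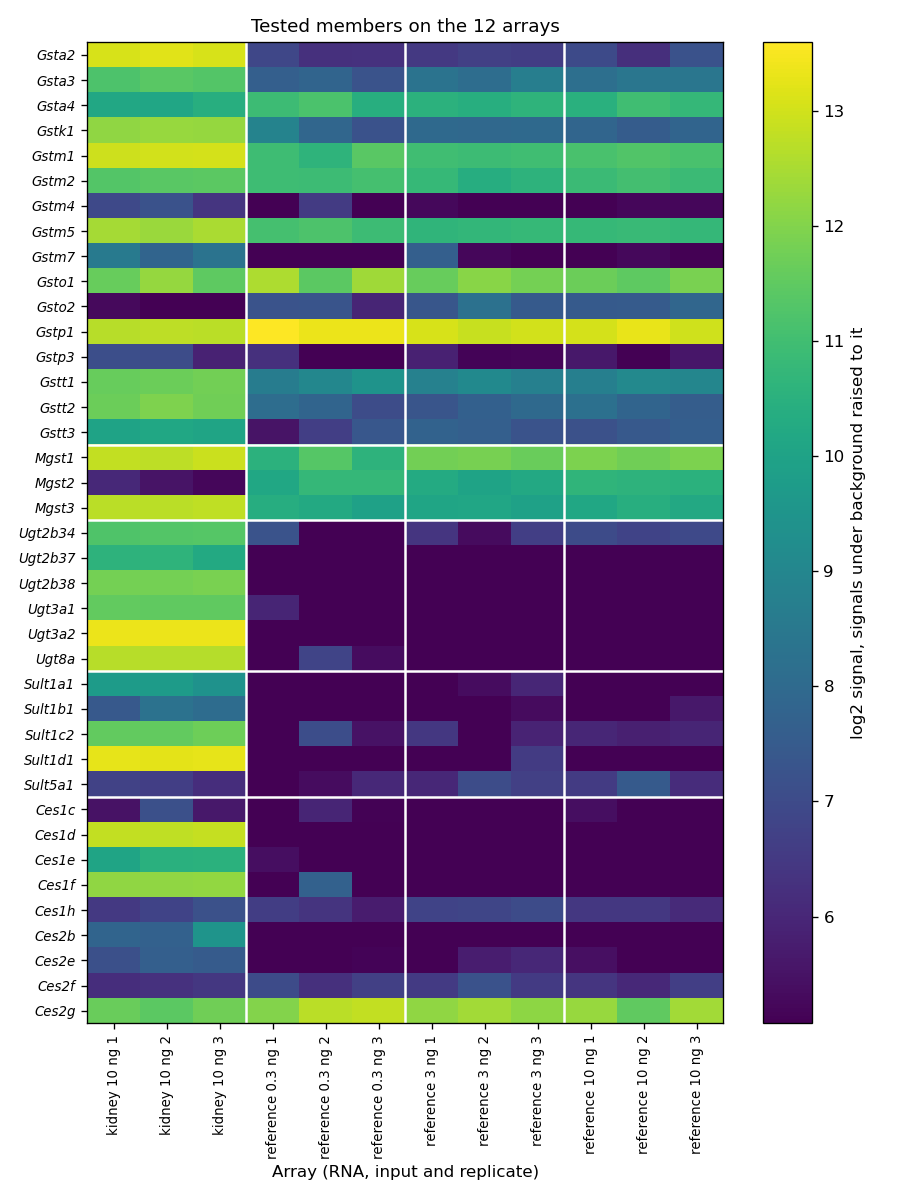
Heatmap of log2 signal of the 39 tested members (rows, by class) on the 12 arrays (columns), with kidney RNA at the left and reference RNA at 0.3, 3 and 10 ng to its right; signals under background were raised to it, and white lines separate groups and classes. The UGT rows are bright on the kidney arrays and mostly at background on the 9 reference arrays, and the Mgst2 row is brighter on every reference array than on any kidney array.

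The arrays of reference RNA at falling input show how far the member signals depend on the amount of RNA. Between 3 ng and 10 ng no member was called, as no gene among the 12820 tested was (limma, 0% called, 8.46% at an unadjusted p under 0.05). Of the 39 members 2 had an unadjusted p under 0.05, Ces1h with a log2 fold change of 0.55 and Mgst2 with -0.41. Sult1d1, Gstm7 and Ugt8a had fitted differences of 1.63, 1.49 and -1.07, which carry no order. The highest 3 ng arrays of Sult1d1 and Gstm7 had 94 and 200.1 units, and the other signals of the 3 genes were at or near background. Ugt8a was below background on all 6 arrays, and Sult1d1 exceeded it on 1 of 3 arrays at 3 ng and on none at 10 ng. Gstm7 exceeded it on 2 of 3 arrays at 3 ng and on 1 of 3 at 10 ng, and its arrays overlapped. The median over the members was -0.10, and over all genes -0.05.

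Between 0.3 ng and 10 ng no member was called either, where 0.554% of all genes were called, 0.0078% higher and 0.546% lower, and 13.4% had an unadjusted p under 0.05. Unadjusted p-values under 0.05 were found for 3 members: Ces1f with a log2 fold change of 3.04, Mgst1 with -1.04 and Gsta3 with -0.76. A second probe set of Gsta3, with signals near background, went the other way (1.28). With the mean of all probe sets the log2 fold change of Gsta3 was 0.26. The value of Ces1f rested on 1 array, as its signals at 0.3 ng were 13.1, 209 and 20.3 units. Mgst1, which was bright at every input, had 1487.5, 2579.5 and 1549 units at 0.3 ng, 3498.5, 3721.5 and 3229.5 at 3 ng and 3867, 3442 and 3871 at 10 ng, and all 0.3 ng arrays were below the others (adjusted p = 0.193 against 10 ng). With all 12 arrays in 1 fit, Mgst1 was called lower (adjusted p = 0.0268) and Ces1f higher (adjusted p = 0.0442) at 0.3 ng than at 10 ng. That fit pools the spread of the 0.3 ng arrays with that of tighter groups, and in it 4.88% of all genes tested were called lower and 0.499% higher.

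Sult5a1 and Ugt2b34 had uncalled differences between these inputs, with some 0.3 ng arrays below background. Sult5a1 had 7.3, 41 and 65.8 units at 0.3 ng and 93.9, 178 and 71.4 units at 10 ng (log2 fold change -1.75, adjusted p = 0.343). Ugt2b34 had 153, 11.9 and 20.6 units at 0.3 ng and 131, 110.0 and 124.5 units at 10 ng, with array 1 at 0.3 ng above the 10 ng arrays and the others below background. Its log2 fold change was -1.67 (adjusted p = 0.423). Without that array it was -2.67 and was called (adjusted p = 0.0342). A second probe set of Ugt2b34 averaged 29.1 units at 0.3 ng and 126 at 10 ng. All its 0.3 ng arrays were below all its 10 ng arrays, and it was not called (log2 fold change -3.04, adjusted p = 0.264).

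Reference arrays of 0.3 ng scattered more than the rest. Over the 39 members tested the median SD of log2 signals was 0.11 in kidney RNA and 0.74, 0.33 and 0.25 in reference RNA at 0.3, 3 and 10 ng, beside 0.26, 0.69, 0.31 and 0.24 over all probe sets tested. To separate this from signals near background, the 19 members above background on all 9 reference arrays were taken alone, and their median SD was 0.40 at 0.3 ng, 0.13 at 3 ng and 0.17 at 10 ng. At 0.3 ng it ranged over these members from 0.08 for Gstm2 to 0.89 for Gstt3, whose arrays had 45.9, 99.9 and 165.5 units. Gstk1 had 473, 239 and 149 units at 0.3 ng and 254, 249 and 252 at 3 ng.

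**Figure D4:**
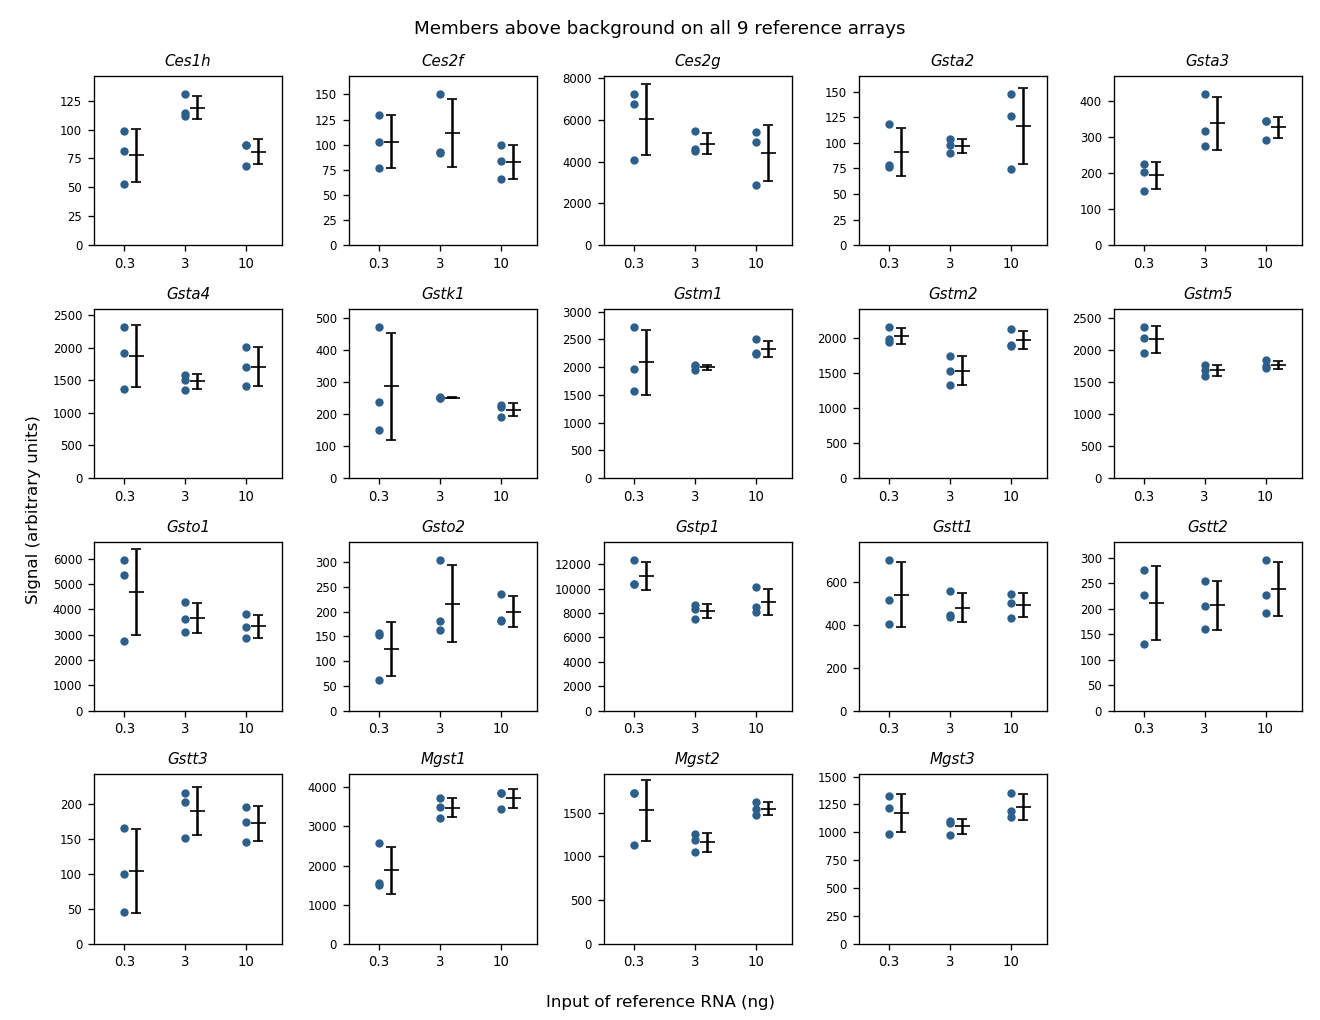
Signal (arbitrary units, linear axes from 0, a scale per gene) of the 19 members above background on all 9 reference arrays, against the input of reference RNA of 0.3, 3 and 10 ng; points are arrays, and bars are the mean and SD of 3 arrays. The Mgst1 points at 0.3 ng lie below all points at 3 and 10 ng, and the bars of Gstk1 and Gstm1 are longest at 0.3 ng.

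Lists of genes around these enzymes, chosen by function, were read in the same comparison of kidney with 10 ng reference RNA, where 27.1% of all genes were called higher and 35.6% lower. The same filter on low signals applied to the lists. How many of their genes passed it through kidney RNA alone was not counted, and such genes favour calls of higher. Of 32 tested genes of phase I oxidation, which adds the groups that are later conjugated, 26 were called higher in kidney RNA and 4 lower (median log2 fold change 4.19). Cyp4a14, a fatty acid hydroxylase, averaged 8952.5 ± 44.8 units in kidney RNA and 23.6 ± 10.4 units in reference RNA, and Aox1, aldehyde oxidase, averaged 55 ± 16.1 and 244 ± 144 units in kidney and reference RNA. Of 13 tested genes that make or carry the cosubstrates of conjugation, 7 were called higher and 2 lower (median 0.40). Papss2, which makes the sulfate donor PAPS, averaged 5855 ± 119 units in kidney RNA and 321 ± 87.0 units in reference RNA (log2 fold change 4.21, adjusted p = 6.17e-05). Ugdh, which makes UDP-glucuronic acid for the UGT enzymes, averaged 3931 ± 208 units in kidney RNA and 5966 ± 407 units in reference RNA and was called lower (-0.60, adjusted p = 0.00821), as was Slc35b2, a carrier of PAPS into the Golgi (-1.93).

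Glutathione synthesis and recycling had 11 genes called higher and 2 lower of 18 tested (median 1.30). Gpx3, the secreted glutathione peroxidase, averaged 14738 ± 349 units in kidney RNA and 41.1 ± 15.0 in reference RNA, while Chac1, which degrades glutathione, averaged 64.1 ± 21.3 and 457 ± 138 units in kidney and reference RNA and was called lower (-2.77). All 9 tested genes of mercapturate formation, which turns glutathione conjugates into the acetylated form excreted in urine, were called higher (median 3.78). The list held 12 genes with a probe set, and the others were too dim to be tested. Among them Nat8, the acetyltransferase of its last step, averaged 7850.3 ± 201 units in kidney RNA and 28.8 ± 7.1 units in reference RNA. Of 24 transporters of foreign compounds and conjugates 19 were called higher and 2 lower (median 2.75). Slco1a1, an uptake carrier of organic anions, was at least 154-fold higher in kidney RNA, and the glutathione conjugate exporter Abcc1 was called lower (-1.84, adjusted p = 0.000343).

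Other conjugating enzymes had 11 genes called higher and 1 lower of 12 tested (median 3.62). Glyat, which conjugates acids with glycine, averaged 7949 ± 107 units in kidney RNA and 24.4 ± 17.3 in reference RNA, and Nnmt, which methylates nicotinamide, was called lower (-2.01). Other hydrolases had 6 higher and 4 lower of 11 (median 1.27). Ephx2, the soluble epoxide hydrolase, averaged 4370.4 ± 6.17 units in kidney RNA and 29.9 ± 28.1 units in reference RNA, while Gusb, the lysosomal enzyme that splits glucuronides, averaged 271 ± 16.4 and 1230.0 ± 165 units in kidney and reference RNA and was called lower (-2.16, adjusted p = 0.000134).

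Of 16 tested regulators of these genes 6 were called higher and 6 lower (median -0.10). Hnf4a, a nuclear receptor of liver and proximal tubule, averaged 11116 ± 427 units in kidney RNA and 34.8 ± 5.51 units in reference RNA (log2 fold change 8.17, adjusted p = 3.81e-06), and Maff, a small MAF protein, averaged 114.5 ± 20.7 and 576 ± 26.5 units in kidney and reference RNA (-2.31). Known targets of NRF2 outside the member families had 4 called higher and 4 lower of 12 (median 0.13). Gclc, the catalytic subunit of glutamate-cysteine ligase, was called higher (2.69) and Blvrb, biliverdin reductase B, lower (-1.76). Some genes, such as Gclc and Abcc1, stand in more than 1 list.

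Marker genes of cell types also differed between kidney and reference RNA, in both directions. The summed signal of 7 proximal tubule markers was 49980 to 50967 units on the kidney arrays and 262.0 to 353 on the 10 ng reference arrays, and all 7 were above background on all kidney arrays. For 5 markers of its straight segment the sums were 24985 to 26229 and 1873 to 2092. Atp11a averaged 1924 units of the latter and was the only 1 of the 5 above background on all 10 ng reference arrays. For 5 genes that mark the distal tubule and loop of Henle the sums were 33807 to 35175 and 65.1 to 100.5, and for 3 of the collecting duct 8653 to 9095 and 78.8 to 109.5. Hepatocytes carry many of the same enzymes. The 8 hepatocyte markers summed to 14158 to 14561 units in kidney RNA and 179 to 234 in reference RNA. Ttr and Apoc3 averaged 9682 and 2611 of these in kidney RNA, the hepatocyte gene Alb averaged 136 units there, and Fgb was below background on all kidney arrays. The enterocyte markers (4 with a probe set) summed to 2518 to 2787 units in kidney RNA and 77.1 to 159 in reference RNA, mostly from Vil1, which averaged 2235 units in kidney RNA, with Fabp2 below background there. The sums in kidney and reference RNA were 429 to 526 and 32.1 to 47.6 for 3 adipocyte markers, 669.9 to 682.5 and 171.8 to 370.0 for 6 adrenal cortex markers, and 8859 to 9127 and 11.4 to 28.0 for 3 red blood cell markers, where Hbb-b2 averaged 8745.8 units in kidney RNA and Hba-a1 was below background on all kidney and all 10 ng reference arrays. They ran the other way for 5 markers of dividing cells (517 to 722 and 13470 to 15686) and 5 fibroblast markers (5685 to 6388 and 37360 to 41493). The part of these cell types in the member differences was not tested.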

How the data were processed

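Mouse kidney RNA and universal reference RNA were measured on 12 arrays in 4 groups of 3. The titles gave each array its group, input and replicate number. The authors deposited linear intensities, 1 per probe set and array, which were found from the values to be scaled to a 2% trimmed mean of 500 on each array. The labels do not give the probe summary, background correction, amplification or software. The number of arrays limits the precision, and no sequencing depth applies.

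The intensities were used as deposited. The log2 values were taken after adding 3.9, the 10th percentile of the positive values. Of 45101 probe sets 64 controls were left out, and 27022 whose highest group mean on the log2 scale exceeded its 40th percentile (a signal of 65.4) were tested with limma 3.58.1 in R 4.3.3, with 2 groups per fit, no covariate and Benjamini-Hochberg adjustment over all 27022. Genes came from the platform annotation: 34945 probe sets named 1 gene, 932 several and 9160 none. All 59 members matched RefSeq GRCm38.p6, which gave neighbours and promoters. The replicate numbers did not pair the arrays: correlations of same-numbered deviations were -0.063 to 0.016. The procedure was tested on simulated data.

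The members and lists were chosen with earlier results of these data known. Members were singled out by fixed rules (in each class, up to 4 largest differences called higher, up to 3 called lower and the highest reference signal; 2 in each direction per list; the 3 largest differences between inputs), and the others were chosen after their values were seen. Alternatives covered the pseudocount, background floor, filter, normalization, array weights, variance prior, samples in the fit, replicate block, probe set choice and each array left out.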

Additional observations from a re-analysis of the deposited data

Results flagged for a closer look

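Probe sets that name several genes of the same families stood outside the comparisons. A probe set naming Gsta1, Gsta2 and Gm3776 averaged 5360 units in kidney RNA and 163.7 units in 10 ng reference RNA. It was called higher in kidney RNA (log2 fold change 5.05, limma adjusted p = 4.45e-05), as was Gsta2 by its own probe set. The 3 probe sets naming 8 Ugt1a genes together, whose transcripts share their last exons, were called higher too. They averaged 10100 and 2398 units, 12800 and 6633 units, and 6040 and 1139 units in kidney and 10 ng reference RNA. Their log2 fold changes were 2.07, 0.95 and 2.40. Unlike most members of the UGT class, these probe sets were above background on all reference arrays, and which of the 8 genes gave the signal cannot be told apart. On the 0.3 ng reference arrays the first of them had 895, 4046 and 3098 units. A probe set naming Ugt2a1 and Ugt2a2 and one naming Ces3a and Ces3b were too dim to be tested.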

How the results depend on the processing

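Each count and median was recomputed under 12 alternative settings and without each array, which gave 270 values, 35 of which moved; the others stayed within 1.5 times the count or within the spread between arrays. Against 10 ng reference RNA, 4 members instead of 2 were called lower with a pseudocount of 16, signals raised to background, quantile normalization, an intensity trend or the mean of all probe sets, through Gsta4 and Gstp1. The median was 2.54 with a pseudocount of 16, 1.64 without a filter, which tests the dim members too, and 2.92 with centred arrays. Against 3 ng the median was 2.52, 1.63 and 3.03 under these settings, 2.54 when the filter used the mean over arrays, 2.79 with quantile normalization and 2.58 with the mean of all probe sets. Against 0.3 ng, 1 member was called lower with a pseudocount of 1, no filter, a filter on the mean or quantile normalization, 4 with signals raised to background, centred arrays or an intensity trend, and 5 with all 12 arrays in 1 fit; the median was 3.09 with a pseudocount of 16, 2.86 with signals raised to background and 1.43 without a filter. Between 0.3 and 10 ng of reference RNA the median was 0.33 with centred arrays, where that of all genes was 0.22. With all 12 arrays in 1 fit, 1 member was called higher and 1 lower, where 0.499% and 4.88% of all genes were. Sult5a1 changed sign between kidney and 10 ng reference RNA, with 0.0744 under quantile normalization, 0.0555 with centred arrays and 0.172 without reference array 2 (-0.46 to 0.172 over the arrays left out). Where no reason is given, the cause was not tested.

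With 1 array left out, kidney against 10 ng gave 27 to 28 members called higher, 2 to 3 lower and medians of 2.59 to 2.78. Against 3 ng these were 27 to 29, 2 to 3 and 2.64 to 2.73, and against 0.3 ng 26 to 27, 1 to 2 and 3.14 to 3.68. Between reference inputs they were 0 to 0, 0 to 1 and -0.20 to -0.04 at 0.3 ng against 10 ng, and 0 to 0, 0 to 0 and -0.13 to -0.04 at 3 ng against 10 ng. With the replicate number as a block, 27 members were called higher and 2 lower against 10 ng, and Gstm2 and Gstp3 lost their calls (adjusted p = 0.0675 and 0.0648), as did Ces2g against 3 ng (adjusted p = 0.0661). The numbers are no pairing by the labels, and not every array correlated best with its own number. Signals near background limit what can be said of the dim members.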
